A study of Mus musculus with 8 samples.

Results

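Base excision repair and mismatch repair were followed in 32D cells through 8 genes chosen by name, out of 56748 genes in the expression table. They were the DNA glycosylases Ung, Ogg1 and Neil3, the abasic site endonuclease Apex1, the strand break sensor Parp1 with the scaffold Xrcc1, and the mismatch repair genes Msh6 and Pms2. Expression was given as FPKM, fragments on a gene scaled both by gene length and by a library total. All 8 genes reached an FPKM of 1 in 2 or more of the 8 libraries, the filter on low values that 11818 genes passed in all.

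32D is a mouse bone marrow line that grows with interleukin-3 and is labelled as myeloblast-like. By transduction, every clone carried mouse Jak2, either as Jak2WT or as Jak2V617F, the activating mutation of myeloproliferative neoplasms. In each background, clones with intact Slc2a1 and Slc2a3 (GLUT1/3 WT) were compared with clones in which CRISPR-Cas9 had disrupted both genes (GLUT1/3 dKO), which encode the glucose transporters GLUT1 and GLUT3. Poly(A) RNA was sequenced after 24 h in a low-supplement medium, which held 2 ng/ml interleukin-3, 1 mM glutamine and 5 mM glucose. Each of the 4 groups held 2 libraries, clone 1 and clone 3, and each knockout clone had been grown from a single cell, so a group stands for 2 clones and not for the range of clones a genotype can give.

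In base excision repair, a glycosylase cuts a damaged or misplaced base from its sugar, Apex1 nicks the abasic site left behind, and a polymerase and a ligase fill and close the gap. Ung removes uracil, Ogg1 removes oxidised guanine, and Neil3 removes oxidised bases, also from single-stranded DNA and from crosslinks met by replication forks. Parp1 marks strand breaks with poly(ADP-ribose), and Xrcc1 brings the ligase and polymerase to them. In mismatch repair, Msh6 belongs to the complex that recognises base mismatches, and Pms2 is the nuclease of the complex that acts next.

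Both targeted genes were lower in every dKO clone than in every GLUT1/3 WT clone. Slc2a1 lay at 44.7 to 64.0 FPKM in the GLUT1/3 WT clones and at 9.17 to 17.3 FPKM in the dKO clones, and Slc2a3 lay at 91.9 to 198 FPKM against 16.0 to 49.5 FPKM. Recovered reads on genes came to 16846011 to 48884329 per library, of which Ung had 103 to 853, Ogg1 121 to 483 and Parp1 4336 to 12908. Of 11 myeloblast markers, Cebpa and Kit were listed at 0 in every library and Mpo, Elane, Ctsg, Csf3r and Cd34 at no more than 0.203 FPKM. The other 4, the granule gene Prtn3 (3.11 to 10.2 FPKM), Spi1, Csf2rb and Il3ra, passed the filter. In bulk RNA, fewer cells of a type and less RNA per cell cannot be told apart.

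The sequence before the transcription start is shown for the 3 genes whose response to dKO differed between backgrounds in the test given further on. They are read from GRCm39 at the canonical GENCODE transcripts, from 100 bases before the start to the base before it, on the strand of the gene. Capitals mark the GC box GGGCGG and its reverse complement, the core of many promoters without a TATA box. For Ung the stretch is chr5:114268347-114268446 on the forward strand, for Neil3 chr8:54092101-54092200 on the reverse strand and for Msh6 chr17:88282331-88282430 on the forward strand.
Ung: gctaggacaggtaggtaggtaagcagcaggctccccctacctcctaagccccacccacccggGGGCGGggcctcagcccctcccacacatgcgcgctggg
Neil3: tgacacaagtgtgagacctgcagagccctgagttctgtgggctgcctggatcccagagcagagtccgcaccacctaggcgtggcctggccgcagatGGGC
Msh6: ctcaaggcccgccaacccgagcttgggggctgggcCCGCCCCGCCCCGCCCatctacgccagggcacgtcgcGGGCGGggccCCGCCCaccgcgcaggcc
The capitals at the end of the Neil3 stretch are the first 4 bases of a GC box that runs past the start.

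In windows from 250 bases before the start to 50 after it, a GC box on either strand lay in 7 of the 8 genes, all but Xrcc1. Such a window was found in 42.5% of 21770 protein-coding genes and in 60.0% of the 9686 that passed the filter. The E2F forms TTTCCCGC, TTTCGCGC, TTTGCCGC and TTTGGCGC, searched on both strands, lay in none of the 8 windows, in 2.82% of all protein-coding genes and in 4.24% of those that passed the filter. The RefSeq promoter table of GRCm38.p6, which held all 8 genes and places some starts elsewhere, gave a match in Msh6 alone, beside 2.60% of its 27025 genes. The 30 bases around it, at chr17:88282482-88282511 on the forward strand of GRCm39, hold the E2F form in capitals, from base 15 after the RefSeq start.
Msh6 site: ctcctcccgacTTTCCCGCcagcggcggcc
A match describes letters and not bound factor, and no match says only that these letters are not in the window.

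Levels per length differed widely among the 8 genes. Parp1 (43.9 FPKM over the 8 libraries), Apex1 (38.6 FPKM) and Msh6 (35.7 FPKM) were high, at or above the 87.8th percentile of the genes tested. Neil3 (7.15 FPKM), Xrcc1 (6.07 FPKM), Pms2 (4.46 FPKM), Ogg1 (4.0 FPKM) and Ung (2.28 FPKM) lay lower. The most variable were Ung, with a highest library 4.54 times its lowest, and Neil3, at 3.07 times, and the steadiest was Xrcc1, at 1.24 times. In 7 of the 8 genes both Jak2V617F GLUT1/3 WT clones lay below each of the other 6 libraries, the exception being Xrcc1, and 14.8% of all genes tested had that pattern.

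**Figure D1:**
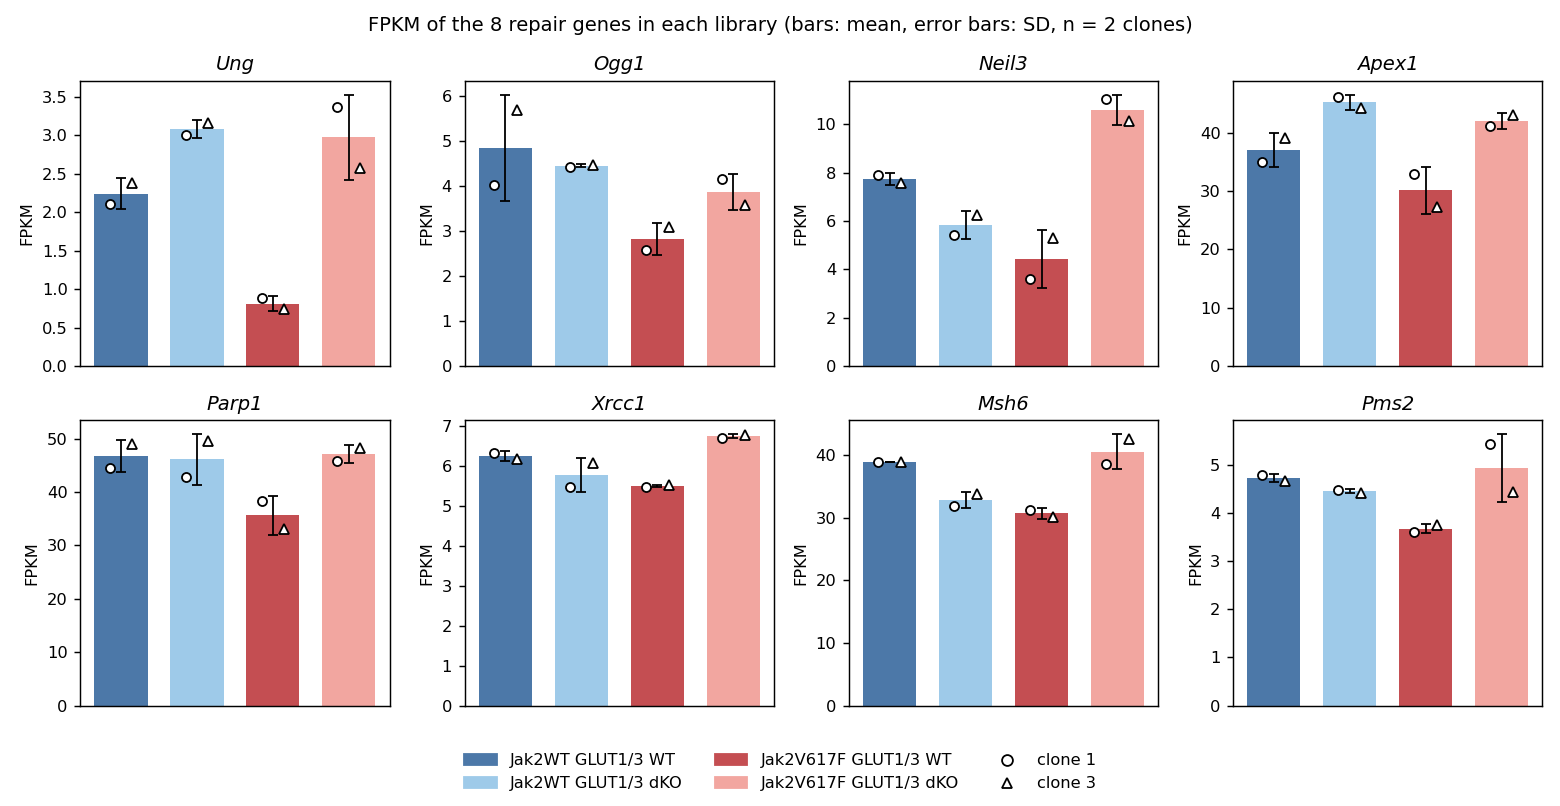
FPKM of each of the 8 genes (vertical axes, each from 0) in the 4 groups, with bars for the mean, error bars for the SD of 2 clones, circles for clone 1 and triangles for clone 3. The Jak2V617F GLUT1/3 WT bar is the lowest of the 4 for all 8 genes, and Ung falls there to 0.880 and 0.742 FPKM.

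Among the glycosylases, Ung (chr5:114268447-114277384, forward strand) stood at 2.10 and 2.38 FPKM in Jak2WT GLUT1/3 WT clones 1 and 3 and at 3.00 and 3.17 FPKM in the Jak2WT dKO clones. It was measured at 0.880 and 0.742 FPKM in Jak2V617F GLUT1/3 WT and at 3.37 and 2.58 FPKM in Jak2V617F dKO. The Jak2V617F GLUT1/3 WT clones were thus the low pair, with no overlap with any other group, and the dKO clones of both backgrounds overlapped. In mean FPKM, Ung was 3.67 times higher with dKO in Jak2V617F, from 2.93 to 4.54 times over pairs of clones.

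Neil3 (chr8:54039902-54092100, reverse strand) was measured at 7.91 and 7.56 FPKM in Jak2WT GLUT1/3 WT and at 5.42 and 6.25 FPKM in Jak2WT dKO. It stood at 3.60 and 5.29 FPKM in Jak2V617F GLUT1/3 WT and at 11.0 and 10.1 FPKM in Jak2V617F dKO. No 2 of the 4 groups overlapped, and the mean was lower with dKO in Jak2WT and 2.38 times higher with dKO in Jak2V617F. Of the 8 genes, Neil3 and Xrcc1 were those with both Jak2V617F dKO clones above all other libraries. The share of all genes tested with that order was not counted.

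Ogg1 (chr6:113303933-113312029, forward strand) had 4.02 and 5.69 FPKM in Jak2WT GLUT1/3 WT, 4.43 and 4.48 FPKM in Jak2WT dKO, 2.58 and 3.08 FPKM in Jak2V617F GLUT1/3 WT and 4.16 and 3.59 FPKM in Jak2V617F dKO. Its Jak2WT GLUT1/3 WT clones were far apart, with an SD of 24.4% of their mean, and the Jak2WT dKO clones lay between them. Like Ung and Neil3, Ogg1 was lowest in Jak2V617F GLUT1/3 WT.

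Downstream of the glycosylases, Apex1 (chr14:51162425-51164596, forward strand) was measured at 34.9 and 39.0 FPKM in Jak2WT GLUT1/3 WT, at 46.1 and 44.3 FPKM in Jak2WT dKO, at 33.0 and 27.2 FPKM in Jak2V617F GLUT1/3 WT and at 41.1 and 43.0 FPKM in Jak2V617F dKO. Of the 8 genes, Apex1 and Ung were those whose dKO clones both exceeded the GLUT1/3 WT clones in either background. How many of all genes tested had that order was not counted. The exons of Apex1 share 923 bases, or 53.8%, with Pip4p1 on the opposite strand. The strand setting of the counting is not given in the sources used here, so reads of the pair may not be told apart. Pip4p1 itself differed by -0.12 with dKO in Jak2V617F (log2, 95% confidence interval -0.32 to 0.08, limma adjusted p = 0.31). The same limit holds for Ogg1, which shares 984 exon bases (29.7%) with Camk1 on the opposite strand. It also holds for Msh6, which shares 524 (10.7%) with Fbxo11 on the opposite strand. Fbxo11 differed by -0.57 with dKO in Jak2V617F and by -0.30 in Jak2WT (log2, limma adjusted p = 0.0027 and 0.047).

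Parp1 (chr1:180396489-180428819, forward strand) lay at 44.6 and 48.9 FPKM in Jak2WT GLUT1/3 WT, 42.7 and 49.5 FPKM in Jak2WT dKO, 38.2 and 33.1 FPKM in Jak2V617F GLUT1/3 WT and 45.9 and 48.3 FPKM in Jak2V617F dKO. All groups but the Jak2V617F GLUT1/3 WT clones overlapped. Xrcc1 (chr7:24245714-24272865, forward strand) lay at 6.33 and 6.17 FPKM, 5.48 and 6.07 FPKM, 5.48 and 5.52 FPKM, and 6.71 and 6.79 FPKM in the same order of groups. Its highest pair, the Jak2V617F dKO clones, stood 1.23 times above the Jak2V617F GLUT1/3 WT clones in mean FPKM.

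In mismatch repair, Msh6 (chr17:88282490-88298320, forward strand) was measured at 38.9 FPKM in both Jak2WT GLUT1/3 WT clones and at 31.9 and 33.7 FPKM in the Jak2WT dKO clones. It had 31.3 and 30.1 FPKM in Jak2V617F GLUT1/3 WT and 38.5 and 42.5 FPKM in Jak2V617F dKO. Msh6 was thus low in Jak2WT dKO and in Jak2V617F GLUT1/3 WT, and high in the other two groups, where the clones overlapped. Pms2 (chr5:143846782-143870786, forward strand) had 4.80 and 4.68 FPKM, 4.49 and 4.43 FPKM, 3.61 and 3.75 FPKM, and 5.44 and 4.45 FPKM in the same order. Its Jak2V617F dKO clones overlapped both Jak2WT groups.

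The effect of losing both transporters was tested first within Jak2V617F, by limma on log2(FPKM + 1) over all genes tested, a scale that understates the change of low genes such as Ung. At an adjusted p under 0.05, 7 of the 8 genes were called higher in the dKO clones and 0 lower, against 13.7% of all genes tested higher and 16.2% lower. Ung rose by 1.13 on the log2 scale (SE 0.13, adjusted p = 0.0014) and Neil3 by 1.11 (SE 0.15, adjusted p = 0.0023). Apex1 rose by 0.47 (adjusted p = 0.016), Parp1 and Msh6 by 0.39 each (adjusted p = 0.032 and 0.011), Pms2 by 0.34 (adjusted p = 0.039) and Xrcc1 by 0.25 (adjusted p = 0.048). Ogg1 differed by 0.35 (SE 0.15, limma adjusted p = 0.12), and its clones did not overlap. The median over the 8 genes was 0.39, beside -0.02 over all genes tested.

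Ung and Neil3 passed the threshold under all 16 alternatives, and the smaller changes did not. Xrcc1 passed in 3, Pms2 in 6, Parp1 in 9, Apex1 in 13 and Msh6 in 15 of them, and all 8 genes stayed above 0 in each. The count fell from 7 to 3 without Jak2V617F GLUT1/3 WT clone 3, and to 4 without either Jak2V617F dKO clone or either Jak2WT GLUT1/3 WT clone. With only the 4 libraries compared it was 2. A two-sided exact permutation test of 2 clones against 2 cannot give a p below 0.333, so every p here rests on a spread shared across genes and groups, which may not cover the spread between independent clones.

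The same contrast in Jak2WT called 0 of the 8 genes, where 7.62% of all genes tested were higher and 6.06% lower. At an unadjusted p under 0.05, limma gave 2 higher, Ung with 0.33 and Apex1 with 0.29, and 2 lower, Neil3 with -0.36 and Msh6 with -0.24 (log2, adjusted p from 0.090 to 0.15). Among all 11818 genes tested, 1984 were higher and 1750 lower at that unadjusted limit. The other 4 of the 8 genes lay between -0.10 and -0.02. The widest 95% confidence interval of these 4, that of Ogg1, ran from -0.44 to 0.26. Voom on the recovered reads and libraries scaled to the same total each called 1 gene here, Msh6, as lower.

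The interaction of background and dKO asks whether the effect of dKO differed between the backgrounds. It was above 0 for all 8 genes, with a median of 0.43 beside -0.04 over all genes tested, and passed the threshold for 3, while 4.72% of all genes tested passed with a positive and 5.91% with a negative sign. The difference was 1.46 for Neil3 (SE 0.21, adjusted p = 0.013), 0.79 for Ung (SE 0.19, adjusted p = 0.040) and 0.63 for Msh6 (SE 0.11, adjusted p = 0.020), on the log2 scale in limma. For Neil3 and Msh6 the clones were lower with dKO in Jak2WT and higher with dKO in Jak2V617F, while Ung was higher with dKO in both. Intervals of Parp1 (0.06 to 0.78), Xrcc1 (0.09 to 0.62) and Pms2 (0.08 to 0.74) lay above 0 before adjustment, and those of Apex1 (-0.17 to 0.55) and Ogg1 (-0.06 to 0.93) held 0. At an unadjusted p under 0.05, limma gave a positive interaction in 1530 and a negative one in 2040 of the 11818 genes tested. The count of the 8 past the threshold was 0 without either Jak2WT GLUT1/3 WT clone or Jak2WT dKO clone 1, and 1 without Jak2WT dKO clone 3 or Jak2V617F GLUT1/3 WT clone 1. The differences themselves ranged from 1.24 to 1.69 for Neil3, from 0.56 to 0.70 for Msh6 and from 0.65 to 0.94 for Ung when one library was left out. Over all genes tested, the calls fell from 1256 to 68 and 5 without Jak2WT GLUT1/3 WT clone 1 or 3, and to 63 without Jak2WT dKO clone 1. The count of the 8 genes was 5 with libraries scaled to the same total and 6 with voom.

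**Figure D2:**
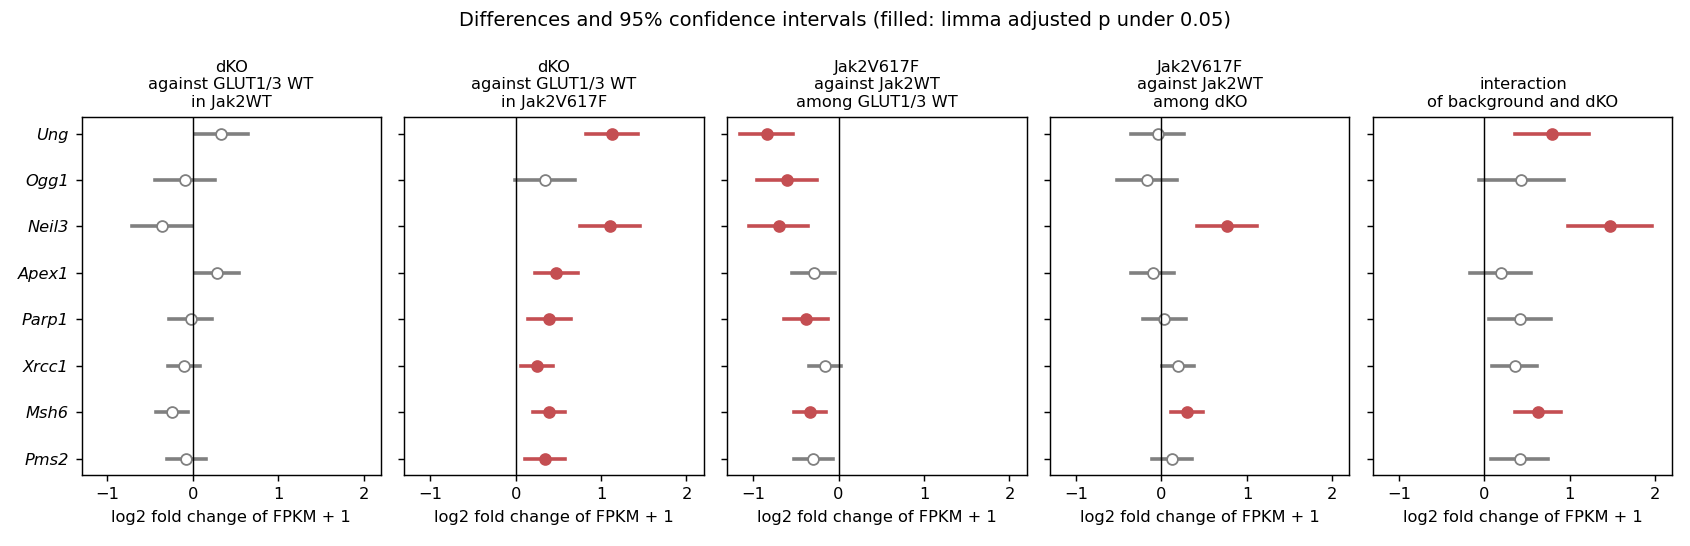
Difference in log2(FPKM + 1) (horizontal axes) for each of the 8 genes in the 5 comparisons, as a point with its 95% confidence interval, red and filled where the limma adjusted p was under 0.05. In the second panel all 8 points lie above 0, led by Ung at 1.13 and Neil3 at 1.11, and in the third all 8 lie below it.

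Jak2V617F against Jak2WT was then compared among the GLUT1/3 WT clones, which share the Jak2V617F GLUT1/3 WT libraries with the dKO contrast above, so the opposite signs of both comparisons are not independent. All 8 genes were lower in Jak2V617F, as were 5797 of the 11818 genes tested, regardless of the test. Of the 8, 5 passed the threshold with 0 higher, against 14.9% of all genes tested lower and 15.3% higher. Ung fell by 0.84 (SE 0.13, adjusted p = 0.0042), Neil3 by 0.70 (SE 0.15, adjusted p = 0.012), Ogg1 by 0.60 (SE 0.15, adjusted p = 0.021), Parp1 by 0.38 (adjusted p = 0.034) and Msh6 by 0.33 (adjusted p = 0.019), on the log2 scale in limma. Apex1 (-0.29, adjusted p = 0.079), Pms2 (-0.29, adjusted p = 0.062) and Xrcc1 (-0.16, adjusted p = 0.17) did not pass. The median was -0.36, beside 0.01 over all genes. Ung was called under all 16 alternatives. The count was 1 without Jak2WT GLUT1/3 WT clone 3, 2 without clone 1 of that group and 3 without Jak2V617F GLUT1/3 WT clone 3, and it was 8 with libraries scaled to the same total and 7 with voom, which shifted the median of all genes to -0.12 and -0.10.

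Among the dKO clones, 2 of the 8 genes were called higher in Jak2V617F than in Jak2WT and 0 were called lower, against 7.12% of all genes tested higher and 9.96% lower. Neil3 was higher by 0.76 (SE 0.15, adjusted p = 0.015) and Msh6 by 0.30 (SE 0.08, adjusted p = 0.045), on the log2 scale in limma. Ung, which differed strongly between the backgrounds among GLUT1/3 WT clones, differed here by -0.05 (95% confidence interval -0.35 to 0.26). The remaining 5 genes lay between -0.17 and 0.20. Leaving out any single library left 0 or 1 of the 2 calls, with 0 without Jak2V617F dKO clone 1 or either Jak2WT dKO clone.

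The other genes of these pathways were taken from lists by role, 31 genes beside the 8, of which 30 passed the filter and Neil2 did not. Counts of higher and lower genes among the 30 are of those past the threshold. With dKO in Jak2V617F, 8 were higher and 1 was lower, with a median of 0.16, where 13.7% of all genes tested were higher and 16.2% lower. The higher genes were the glycosylases Mpg (0.92), which removes alkylated bases, and Mbd4 (0.82), which acts on thymine and uracil opposite guanine. In gap filling they were the flap nuclease Fen1 (1.49), the sliding clamp Pcna (1.32) and the ligase Lig1 (1.00), in mismatch repair the exonuclease Exo1 (1.08), and among the enzymes that clean the nucleotide pool the dUTP hydrolase Dut (0.97) and Samhd1 (0.27). Parg, which removes poly(ADP-ribose), fell by 0.38. Fen1, Pcna, Lig1 and Exo1 also act at replication forks.

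Among the GLUT1/3 WT clones, Jak2V617F was lower in 10 of the 30 and higher in 4, beside 14.9% and 15.3% of all genes tested, so that the count of higher genes was near that share. The lower genes included Tdg, Mbd4 and Mutyh among the glycosylases, Fen1 (-1.15), Lig1 and Pcna in gap filling, Exo1 in mismatch repair, and Dut (-1.05). The 4 higher genes were Mpg (0.93), Polb (0.48), Aptx (0.48) and Mlh3 (0.40). Mpg therefore moved against Ung, Ogg1 and Neil3 in this comparison, at 1.90 and 1.74 FPKM in Jak2WT and 4.42 and 4.35 FPKM in Jak2V617F. In Jak2WT, dKO called 3 of the 30 higher, among them Adprs (0.55) and Nudt1 (0.43), and 1 lower, counts near the 7.62% and 6.06% of all genes tested. Among the dKO clones, Jak2V617F was higher in 4, Mpg (1.37), Pcna (0.51), Lig1 (0.47) and Samhd1 (0.44), and lower in 2, among them Nudt1 (-0.40), beside 7.12% and 9.96% of all genes tested. The interaction passed the threshold with a positive sign in 6, Fen1 (1.35), Dut (1.13), Lig1 (1.07), Pcna (1.04), Mbd4 (0.99) and Exo1 (0.85), and with a negative sign in 0, beside 4.72% and 5.91% of all genes tested. Regardless of the test, it lay above 0 in 19 and below 0 in 11 of the 30.

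**Figure D3:**
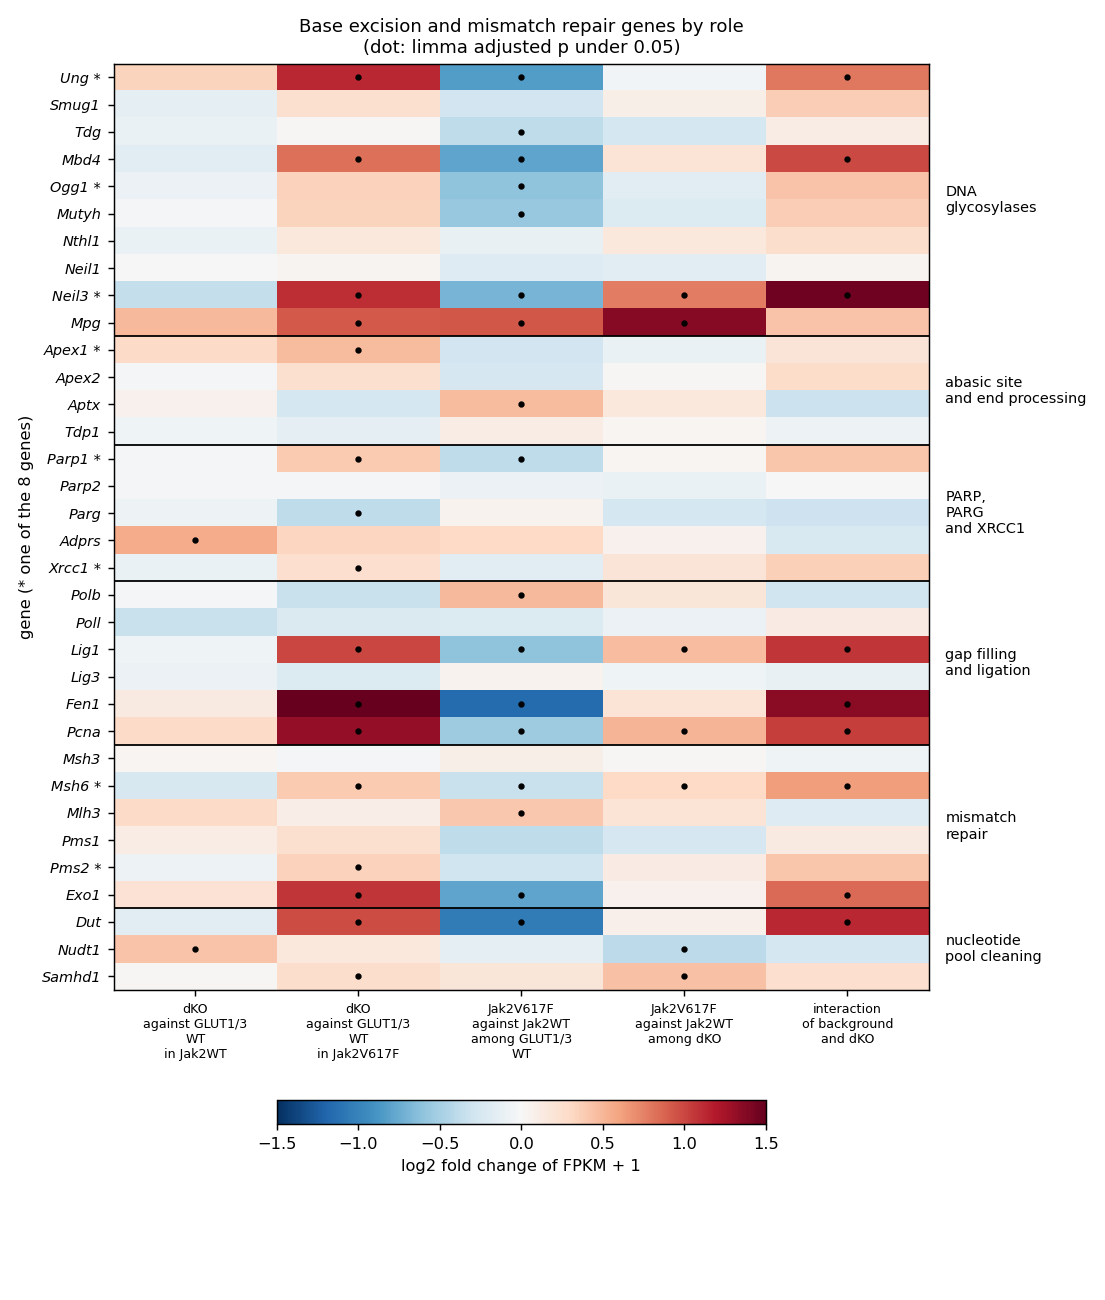
Difference in log2(FPKM + 1) (colour, red higher and blue lower) of 34 base excision and mismatch repair genes (rows, by role) in the 5 comparisons (columns), with a dot where the limma adjusted p was under 0.05 and an asterisk on the 8 genes. Fen1, Pcna, Lig1, Exo1 and Dut are red in the second column and blue in the third, as Ung and Neil3 are, and Mpg is red in both.

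Replication genes moved with the same groups. Counts are of genes past the threshold, with the share of all genes tested in brackets. Of 16 DNA replication genes (the Mcm2 to Mcm7 helicase, Cdc45, Gins1, Gins2, polymerase and primase subunits, Rrm1, Rrm2 and Tyms), 16 were higher with dKO in Jak2V617F (13.7%), with a median of 1.14. With dKO in Jak2WT 0 were higher (7.62%) and 0 lower (6.06%), with differences from -0.28 to 0.25. Their summed level was 578 to 616 FPKM in Jak2WT GLUT1/3 WT, 568 to 650 in Jak2WT dKO, 284 to 335 in Jak2V617F GLUT1/3 WT and 688 to 721 in Jak2V617F dKO. Among the GLUT1/3 WT clones 15 of them were lower in Jak2V617F (14.9%), among the dKO clones 3 were higher (7.12%), and 16 had a positive interaction (4.72%). Of 10 mitosis genes, 4 were higher with dKO in Jak2V617F (13.7%), 5 lower with dKO in Jak2WT (6.06%) and 6 lower in Jak2V617F among the GLUT1/3 WT clones (14.9%). The part of the cell cycle in the values of the 8 repair genes was not tested.

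Of the genes tested, those whose centred profiles over the 8 libraries came closest to Ung were Fam111a, E2f8 and Gart, with root mean square differences of 0.118, 0.119 and 0.121 in log2(FPKM + 1). E2f8, for example, had group means of 16.9, 19.6, 8.61 and 21.1 FPKM in the order Jak2WT GLUT1/3 WT, Jak2WT dKO, Jak2V617F GLUT1/3 WT and Jak2V617F dKO. Ung had 2.24, 3.08, 0.811 and 2.97 FPKM in that order. The scale understates changes at such low levels, so the profiles are less alike in FPKM. The genes closest to Neil3 were Ticrr, Bard1 and Cort, with 0.144, 0.148 and 0.154. Ticrr, a replication initiation factor, had group means of 6.67, 5.63, 3.77 and 7.99 FPKM in that order, and Bard1, the partner of Brca1, had 6.55, 5.66, 3.48 and 8.08 FPKM. Cort, at 0.610, 0.407, 0.134 and 1.09 FPKM, lay near the filter on low values. Its mean exceeded 1 FPKM in Jak2V617F dKO only, where Neil3 is also highest, so no weight is put on this match.

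**Figure D4:**
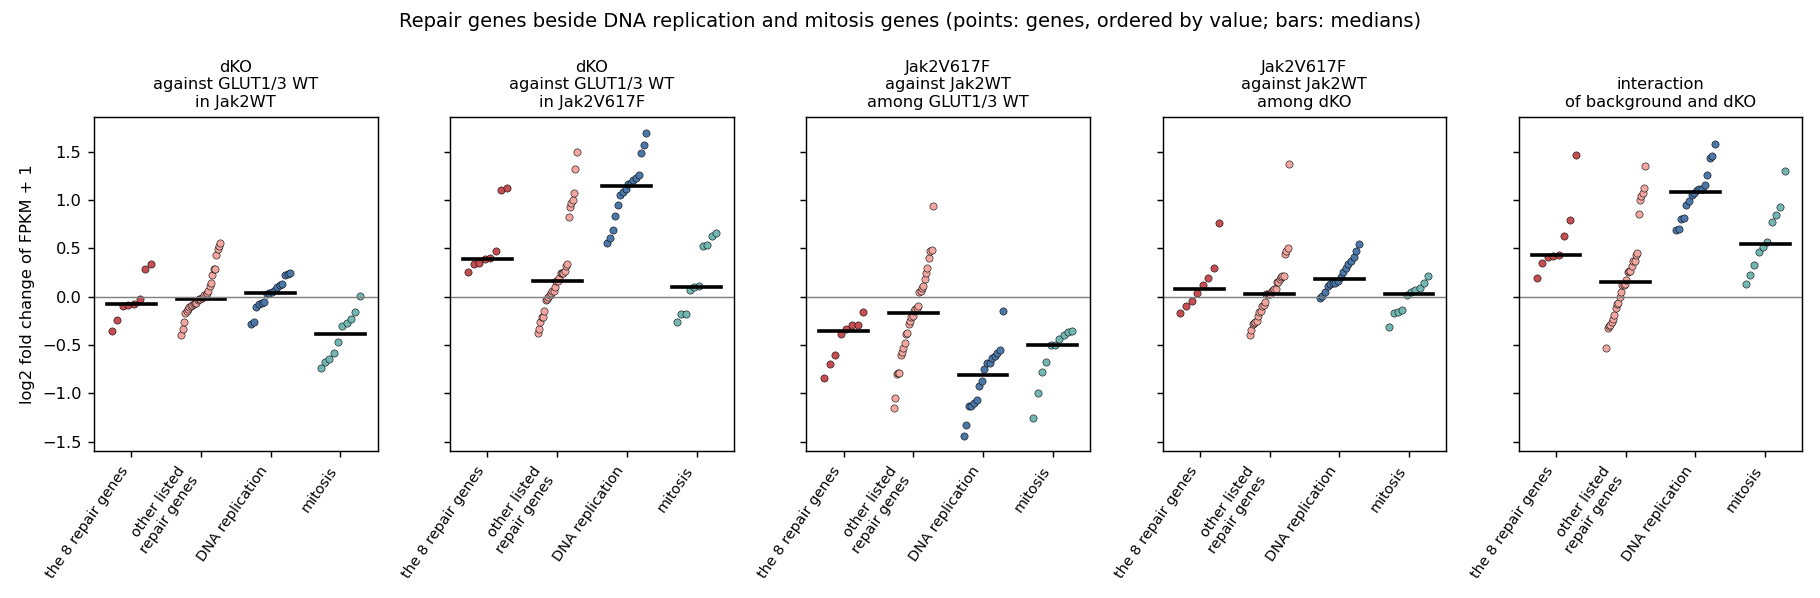
Difference in log2(FPKM + 1) (vertical axis) of single genes (points, ordered by value) in 4 lists and 5 comparisons, with a bar at each list's median. With dKO in Jak2V617F the medians are 0.39 for the 8 repair genes, 0.16 for the other listed repair genes, 1.14 for DNA replication and 0.10 for mitosis.

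Markers of other blood cells moved with the groups too. Of 7 erythroid markers tested, the globin gene Hba-a2 passed the filter only through Jak2V617F libraries. It is left out of the counts of markers but is part of the sums below. Of the other 6, 5 were higher with dKO in Jak2V617F, and the summed erythroid list stood at 245 to 262 FPKM in Jak2WT GLUT1/3 WT, 398 to 421 in Jak2WT dKO, 596 to 950 in Jak2V617F GLUT1/3 WT and 2682 to 4841 in Jak2V617F dKO. The 4 globin genes of the list made up 19.1 to 25.5% of this sum in Jak2WT GLUT1/3 WT and 94.1 to 95.1% in Jak2V617F dKO, while the markers Alas2 and Slc4a1 lay at no more than 0.312 FPKM in any library. Among megakaryocyte markers, Pf4 and Ppbp passed the filter only through the Jak2V617F dKO clones, at 2.03 to 28.2 and 3.92 to 18.5 FPKM, and are likewise not counted. The other two, Itga2b and Gp9, differed by 0.03 and 0.04 with dKO in Jak2V617F (log2, limma adjusted p = 0.80 and 0.82). With dKO in Jak2WT they were higher, by 0.43 and 0.78 (limma adjusted p = 0.019 and 0.012), and so were 2 of the 6 erythroid markers. With dKO in Jak2V617F, 2 of 4 myeloblast markers were lower, by up to -1.29. Among the GLUT1/3 WT clones, 4 erythroid and 2 megakaryocyte markers were higher in Jak2V617F, and 1 erythroid marker was lower. The mast cell marker Cpa3, which passed the filter only through Jak2WT libraries, had group means of 86.5, 75.7, 0.542 and 0.836 FPKM in the order of groups given for E2f8. The last mean is of clones at 0 and 1.67 FPKM. Of 7 mast cell and basophil markers, only Gata2 passed the filter beside Cpa3. Gata2 went the other way between backgrounds, with 124, 118, 159 and 141 FPKM in the same order. Among the dKO clones, 4 of the 6 erythroid markers were higher in Jak2V617F, and so were Itga2b (1.08) and Gp9 (1.17). Lymphoid markers summed to no more than 0.712 FPKM. The part of these differences in the values of the 8 repair genes was not tested.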

How the data were processed

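RNA sequencing of 8 libraries of 32D cells was analysed, 2 clones in each of 4 groups taken from the labels. The authors made the deposited FPKM values from reads cleaned with fastp 1.0.1, aligned to mm39 (GRCm39) with HISAT2 2.2.1 and counted per gene with featureCounts 2.0.6, per the submitters' processing notes. The annotation, the strand setting and the library total behind the FPKM are not given in the sources used here. All sample columns were used (0 left out). In each library, 100% of the FPKM values, once multiplied by gene length, were whole numbers of a common unit (tolerance 0.01), and these were taken as recovered reads.

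Genes with FPKM of 1 or more in at least 2 libraries were tested by limma 3.58.1 (R 4.3.3) on log2(FPKM + 1), a pseudocount of 1, with 4 group means in one fit and a trended empirical Bayes step. This gave 4 residual degrees of freedom and 3.34 from the spread shared across genes. P-values were two-sided and adjusted by Benjamini-Hochberg over the 11818 genes tested in each of 5 comparisons, with a threshold of 0.05. An n counts clones. The test was checked on simulated data.

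The 8 genes and all lists were chosen with earlier results of these data known. Beside the 8, genes named are, in each comparison, up to 5 listed genes with the largest change past the threshold with clones apart, listed genes in counts of 5 or fewer, the 3 genes closest in profile to a gene whose group means span more than 1 (Ung and Neil3), and Slc2a1 and Slc2a3. Pip4p1, Camk1 and Fbxo11, which overlap Apex1, Ogg1 and Msh6, and blood cell markers outside this rule were named after values were seen. The GC box search was chosen after values were seen. Some genes that this rule covers, and an item that the clones share, are not reported here. A planned search of the proteins for a PCNA-binding motif was not analysed here. Alternatives were a pseudocount of 0.1, no filter, libraries scaled by their median ratio or to the same total, no trend, only the groups compared, voom on recovered reads, the clone number as a block, and leaving out each library. Figures were drawn with matplotlib 3.10.9.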

Additional observations from a re-analysis of the deposited data

Results flagged for a closer look

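Of the 8 genes, 3 were marked because the effect of dKO differed between the Jak2V617F and Jak2WT backgrounds in the interaction test. The dKO effect in Jak2V617F minus that in Jak2WT was 1.46 on the log2 scale for Neil3 (limma adjusted p = 0.013), 0.79 for Ung (limma adjusted p = 0.040) and 0.63 for Msh6 (limma adjusted p = 0.020). With dKO in Jak2WT none of the 3 passed the threshold, at -0.36 for Neil3, -0.24 for Msh6 and 0.33 for Ung (limma adjusted p = 0.15, 0.090 and 0.13), and with dKO in Jak2V617F all 3 were higher. The 15 alternatives gave an adjusted p between 0.0023 and 0.066 for Neil3, between 0.0058 and 0.14 for Ung and between 0.0034 and 0.091 for Msh6. No group was large enough for a check of single outlying libraries.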

How the results depend on the processing

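The number of the 8 genes called was 7 with dKO in Jak2V617F, 5 for Jak2V617F against Jak2WT among GLUT1/3 WT clones, 2 among dKO clones, 3 for the interaction and 0 with dKO in Jak2WT. Without a filter on low values it was 4, 2, 0, 1 and 0 in that order, and with only the groups compared it was 2, 3 and 1 in the first 3. The spread then rests on 4 libraries. Calls over all genes then fell from 3533 to 1617, from 3577 to 3379 and from 2019 to 1028 in these 3 comparisons. With dKO in Jak2WT they rose from 1617 to 2062, and the cause was not tested. Scaling libraries to the same total gave 8 among GLUT1/3 WT clones, 5 for the interaction and 1 with dKO in Jak2WT, and voom gave 6 for the interaction and 1 with dKO in Jak2WT. Both shifted the median of all genes, by the same total to -0.12 among GLUT1/3 WT clones and 0.12 for the interaction, and by voom to -0.10 and 0.11. Among all genes called, the share higher went from 50.7% to 29.4% (same total) and 34.5% (voom) among GLUT1/3 WT clones, from 44.4% to 75.0% and 69.7% for the interaction, from 45.7% to 60.2% and 59.2% with dKO in Jak2V617F, and from 55.7% to 33.9% and 39.1% with dKO in Jak2WT. Without the trend 1 gene was called among dKO clones. Leaving out one library gave 3 to 5, 1 to 6, 0 to 1, 0 to 4 and 0 to 0. The lone clone left was then assumed to vary like the other groups.

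With the clone number as a replicate block the counts were 5, 5, 1, 2 and 0. Deviations of clones with the same number correlated from -0.25 to 0.15 over the 6 pairs of groups. With 2 clones a group, each pair gives a single value, which cannot show whether such clones share more than a number. The labels do not say.

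Of 632 values of single genes under the alternatives, 625 kept their sign. The 7 that did not arose from leaving out one library and touched no call. With dKO in Jak2WT, Parp1 ranged from -0.13 to 0.081 and Ogg1 from -0.29 to 0.12. Among dKO clones, Parp1 ranged from -0.070 to 0.14, Pms2 from -0.0023 to 0.24 and Ung from -0.19 to 0.10.

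Over all genes, 1617 were called with dKO in Jak2WT (714 without a filter, 2605 with voom, 110 to 1974 leaving out one library), 3533 with dKO in Jak2V617F (1617 with only the groups compared, 2131 to 2985 leaving out one library), 3577 for Jak2V617F against Jak2WT among GLUT1/3 WT clones (1583 to 3969 leaving out one library), 2019 among dKO clones (1028 with only the groups compared, 620 to 1992 leaving out one library) and 1256 for the interaction (346 without a filter, 1896 with voom, 5 to 1256 leaving out one library). The lowest counts came without Jak2WT GLUT1/3 WT clone 1, Jak2V617F GLUT1/3 WT clone 1, Jak2WT GLUT1/3 WT clone 3, Jak2WT dKO clone 1 and Jak2WT GLUT1/3 WT clone 3, in that order. The cause was not tested. Counting was coarse for Ung and Ogg1, at 103 and 121 reads in their lowest libraries.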
